A study of Mus musculus with 2 samples.

Results

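The SOX genes encode transcription factors that bind DNA through an HMG box, a domain that inserts into the minor groove and bends the helix, and they are sorted by sequence into groups named by letters. Several of them act in the embryo around the heart: group C genes in the outflow tract and neural progenitors, group D genes in cartilage and muscle, group E genes in neural crest, gonad and heart valves, and group F genes in endothelium and endoderm. Because many SOX factors can bind sites that are still wrapped in nucleosomes, open chromatin around their own genes is of interest in cells that are leaving the mesoderm stage.

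The 10 SOX genes described here were Sox4, Sox11 and Sox12 of group C, Sox5 and Sox6 of group D, Sox8 and Sox9 of group E, and Sox7, Sox17 and Sox18 of group F. They were chosen by name, as SOX genes known mainly for roles other than pluripotency, and every distinct ATAC-Seq peak that carried the symbol of one of them in the deposited list was counted as theirs. This gave 27 of 26232 distinct peaks, and 10 of the 15351 genes with a peak.

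ATAC-Seq finds DNA that the Tn5 transposase can reach, which is taken as open chromatin. It was performed on 100000 cardiac progenitor cells (CPCs) per library at day 5 of directed differentiation of E14 Tg(Nkx2-5-EmGFP) mouse embryonic stem cells, which carry a green fluorescent reporter of Nkx2-5, a gene of early heart cells, and whose strain was labelled C57BL/6. The cells had been exposed to BMP4, then to Activin A, VEGF and BMP4, and then to VEGF, bFGF, FGF10 and ascorbic acid, and no sort on the reporter is described for these libraries. The 2 replicates, made from separate differentiations of 1 stem cell line, formed 1 group without knockdown, and knockdown cells named by the series were not analysed here. Only regions that were called in each of the replicates are listed, without a height or a value per replicate, so read depth was unknown, no replicate error could be given, no test between conditions was possible, and a peak open in all cells could not be told apart from 1 open in a fraction of them.

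As a check of the labelled cell type, 6 of 7 cardiac progenitor genes had a peak, among them Isl1 with 8, Tbx20 with 6, Tbx5 with 5 and Nkx2-5 with 3, while Hand2 had none. At least 1 peak was found at 62.5% of protein coding genes. Genes of other cell types had peaks as well, with 3 of 4 pluripotency genes, 4 of 5 endothelial genes, 4 of 5 neural and neural crest genes, 1 of 3 endoderm genes and 1 of 3 cartilage genes. The presence of a peak therefore did not separate these cell types, and whether other cells in the culture contributed to peaks at SOX genes was not tested.

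All 10 SOX genes had at least 1 peak, which 62.5% of 21896 protein coding genes had. These genes were chosen with earlier results of these data known, and of 10 other SOX genes looked up 7 had a peak. A peak whose midpoint lay within 1 kb of the transcription start site (TSS) was found at 6 of the 10 SOX genes described here, namely Sox4, Sox11, Sox12, Sox8, Sox9 and Sox7, and at 50.0% of protein coding genes. Sox5, Sox6, Sox17 and Sox18 had peaks only farther away. The number of peaks per SOX gene ranged from 1 to 7 with a median of 2, compared with a median of 1 over protein coding genes. Sox11 had 7, Sox6 had 6 and Sox4 had 3, so 3 of 10 had 3 or more, against 10.3% of protein coding genes. Sox12, Sox5, Sox8 and Sox17 had 2 each, and Sox9, Sox7 and Sox18 had 1 each. By group, the 3 genes of group C held 12 peaks, the 2 of group D held 8, the 2 of group E held 3 and the 3 of group F held 4.

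**Figure D1:**
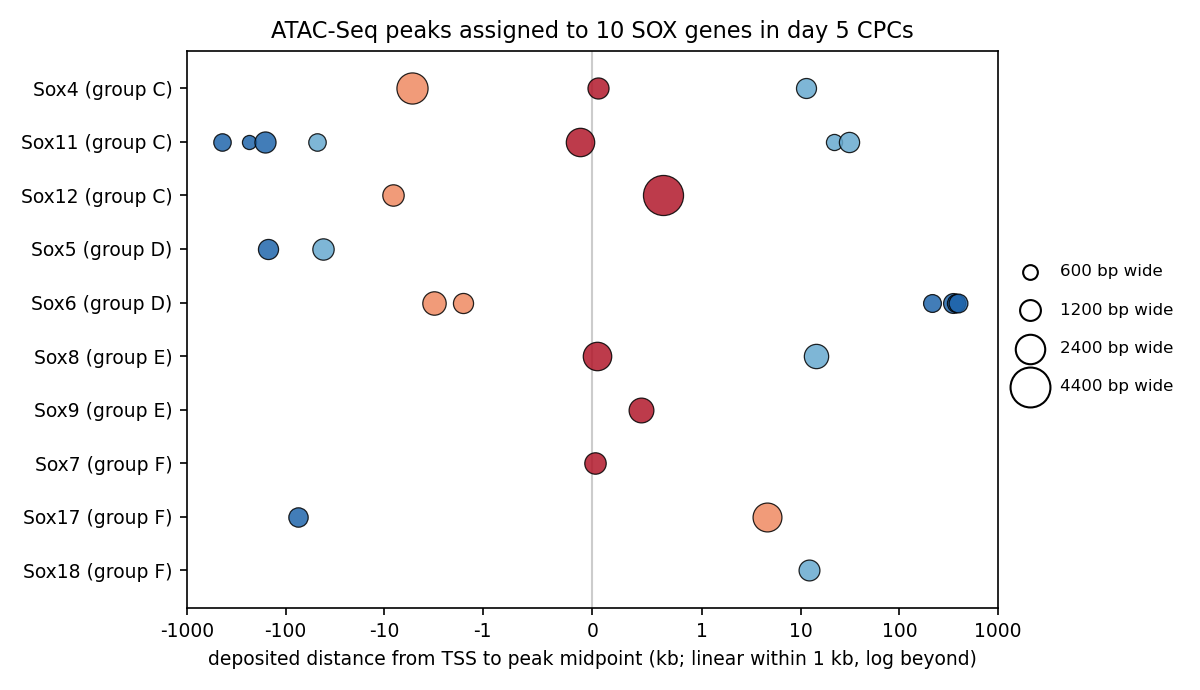
Each point is 1 of the 27 peaks, placed by the deposited distance of its midpoint from the TSS (horizontal axis, in kb, linear within 1 kb and logarithmic beyond; negative is upstream) for each SOX gene (vertical axis), with the area of the point set by the peak width and the colour by distance class. 6 genes have a point at or next to the TSS, while Sox5, Sox6, Sox17 and Sox18 have none within 1 kb, and the largest point belongs to Sox12.

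The sequence just before the TSS is shown for 6 of the genes, since these stretches lay inside a peak at some of them and outside peaks at others. Each is the 60 bp upstream of the TSS, taken as the more upstream of the outermost protein coding TSS in the annotation and the TSS behind the deposited distances, read 5′ to 3′ along the gene on mm9, with the letters ATTGG, the other strand of a CCAAT box, in capitals. Sox4 (chr13:29045583-29045642, minus strand), Sox12 (chr2:152223783-152223842, minus strand), Sox9 (chr11:112643464-112643523, plus strand) and Sox7 (chr14:64562451-64562510, plus strand) lay inside a peak. Sox5 (chr6:144158089-144158148, minus strand) and Sox18 (chr2:181406346-181406405, minus strand) lay outside any peak.
Sox4: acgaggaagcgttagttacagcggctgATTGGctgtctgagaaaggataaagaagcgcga
Sox12: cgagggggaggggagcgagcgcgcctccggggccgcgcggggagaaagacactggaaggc
Sox9: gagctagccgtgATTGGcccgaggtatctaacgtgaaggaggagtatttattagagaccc
Sox7: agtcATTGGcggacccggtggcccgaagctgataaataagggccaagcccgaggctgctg
Sox5: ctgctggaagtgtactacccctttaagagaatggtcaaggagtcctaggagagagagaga
Sox18: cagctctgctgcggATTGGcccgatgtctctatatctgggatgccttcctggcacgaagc

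The Sox12 stretch held 8 CG dinucleotides and the Sox5 stretch held 0. CCAAT on either strand was searched for after the sequences had been seen, and it stood in this stretch at 5 of the 10 genes, which were Sox4, Sox11, Sox9, Sox7 and Sox18. With the TSS taken from the annotation for every gene, it stood within 60 bp at 3 of the 10, compared with 11.7% of 22216 protein coding promoters, and within 100 bp at 5 of the 10, compared with 20.1%. Among the 11530 of these promoters with the TSS inside a peak, the shares were 13.9% and 23.0%. Of the 6 genes with a peak at the TSS, Sox12 and Sox8 lacked these letters, and of the 4 without, Sox18 had them.

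Among the group C genes, which encode activators of neuronal and mesenchymal progenitors, Sox12 had the widest of all SOX peaks. This peak (chr2:152220919-152225358) was 4440 bp wide and ran from −1576 to +2863 bp around the TSS, so that it covered all 942 bp of coding sequence of this gene without introns in its coding part. It was wider than 99.8% of peaks within 1 kb of a TSS. The other Sox12 peak (chr2:152231371-152232637) was 1267 bp wide, lay in intergenic sequence at −8221 bp, and was wider than 72.8% of the peaks 1 to 10 kb from a TSS.

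Sox11, a gene of neural and outflow tract progenitors, had the most peaks. Its TSS peak (chr12:28026581-28028812) had its midpoint at −113 bp, spanned 2232 bp and covered 693 of 1185 coding bp. The remaining 6 peaks lay in intergenic sequence, 4 of them upstream, and the farthest (chr12:28471331-28472172, 842 bp) stood at −444168 bp. The narrowest (chr12:28263022-28263572) was 551 bp wide at −235713 bp, narrower than nearly all peaks more than 50 kb from a TSS, of which 7.26% were narrower still. By the deposited distances, Sox11 had both the farthest and the narrowest peak of the 10 genes, although from the outermost Sox6 TSS the farthest Sox6 peak lay 629702 bp away.

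At Sox4, which acts with Sox11 in outflow tract and endocardial cushion formation, the widest peak was not the one at the TSS. The TSS peak (chr13:29044888-29046114) had its midpoint at +51 bp and was 1227 bp wide, which was wider than 40.3% of peaks within 1 kb of a TSS. The peak upstream (chr13:29049479-29052160) was 2682 bp wide at −5268 bp, which was wider than 96.8% of the peaks in its distance class. A peak downstream of the gene (chr13:29033690-29034796) was 1107 bp wide at +11309 bp.

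Group D proteins have no activation domain of their own and work beside other factors, Sox9 among them in cartilage. Neither Sox5 nor Sox6 had a peak over any annotated TSS, of which there were 12 distinct positions at Sox5 and 5 at Sox6. Both Sox5 peaks lay upstream of the TSS used for their distance but inside the annotated span of the Sox5 gene, outside its exons. The first (chr6:144198981-144200241, 1261 bp) stood at −41522 bp and the second (chr6:144309479-144310596, 1118 bp) at −151949 bp. They were wider than 82.8% and 80.0% of the peaks in their distance classes.

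Of the 6 Sox6 peaks, the nearest (chr7:123183298-123184415, 1118 bp) stood at −1598 bp, with its closer edge at −1040 bp from the outermost TSS. The widest (chr7:123176909-123178426, 1518 bp) was at −3106 bp from an inner TSS and lay in an intron, 4590 bp past the outermost TSS. These Sox6 peaks flanked the outermost TSS on both sides without covering it. The narrowest (chr7:122732339-122733216, 878 bp) lay in an intron at +212346 bp, and the farthest (chr7:122552068-122553044, 977 bp) at +392568 bp. The 3 Sox6 peaks farthest downstream lay 17.6, 48.2 and 62.3 kb past the annotated end of Sox6. For these 3 and the peak at +212346 bp the TSS behind the deposited distance was 23098 bp from any annotated Sox6 TSS, so that their distances depend on the gene model used.

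Group E genes had peaks at the TSS that reached into the coding sequence. The Sox9 peak (chr11:112643114-112644813), at a gene required for cartilage, testis and heart valves, was 1700 bp wide at +439 bp, ran from −410 to +1289 bp and covered 431 of 1521 coding bp. The TSS peak of Sox8 (chr17:25706474-25708712), its close relative, was 2239 bp wide at +39 bp and covered 413 of 1409 coding bp. A second Sox8 peak (chr17:25692658-25694293, 1636 bp) lay at +14156 bp, 9.36 kb past the end of the gene, and was wider than 93.3% of peaks 10 to 50 kb from a TSS. Sox10, the group E gene of neural crest and glia, had no peak.

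The group F genes, which act in blood vessel formation and for Sox17 also in endoderm, differed from each other in where their peaks lay. Sox7 had 1 peak (chr14:64561929-64563199), 1271 bp wide and centred at +20 bp, which covered 238 of 1140 coding bp. Sox17 had a peak of 2305 bp (chr1:4481774-4484078) at +4510 bp, which ran from +3357 to +5661 bp and covered all 1257 bp of coding sequence but neither of its 2 annotated TSS. The other Sox17 peak (chr1:4561480-4562517, 1038 bp) was intergenic at −74563 bp. The only peak of Sox18 (chr2:181393725-181394929, 1205 bp) lay at +12019 bp, 10.2 kb past the end of the gene, and the peak nearest to the Sox18 TSS, at −7369 bp, was assigned to the neighbouring gene Tcea2. Thus of the 3 group F genes, Sox7 had a peak at the TSS, Sox17 within the gene, and Sox18 at neither place.

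That a single peak held the whole coding span, from start to stop codon, was seen at Sox12 (942 bp) and Sox17 (1688 bp with its intron). Of the 10 SOX genes, 5 had a coding span of at most 2500 bp (Sox4, Sox11, Sox12, Sox17 and Sox18), and 2 of these 5 lay under 1 peak, compared with 6.84% of 5528 protein coding genes with a span up to that limit. The 5528 genes were not limited to genes with a peak, while all 5 of these SOX genes had at least 1, which lowers the share they are compared with. This comparison was also not planned in advance, and the limit left out Sox9 (2923 bp) and Sox8 (3187 bp), so it is a description only.

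The SOX peaks lay farther from a TSS than peaks in general, as a description of 27 peaks that share 10 genes. Of the 27, 6 (22.2%, 95% Wilson interval 10.6 to 40.8%) were within 1 kb, compared with 44.9% of all peaks, and 9 (33.3%, 18.6 to 52.2%) were more than 50 kb away, compared with 17.0%. The shares between were closer, with 5 SOX peaks (18.5%) against 13.8% of all peaks at 1 to 10 kb, and 7 (25.9%) against 24.4% at 10 to 50 kb. The median absolute distance was 14156 bp, with quartiles of 2352 and 156199 bp, against 4154 bp with quartiles of 145 and 29665 bp over all peaks. Among peaks wider than the median of the list, it was 5268 bp for 19 SOX peaks and 270 bp for all 13090 such peaks. Sox11 and Sox6 supplied 7 of the 9 peaks beyond 50 kb, and Sox5 and Sox17 the other 2. Of the 21 peaks more than 1 kb away, 11 were upstream (52.4%, 32.4 to 71.7%), compared with 44.2% of all such peaks. By annotation, 6 of the 27 midpoints were within 1 kb of a coding TSS, 5 were in introns and 16 were intergenic.

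SOX peaks were wide for their distance. Within each of the 4 distance classes the median SOX peak was wider than the median of all peaks. It was 1966 bp against 1326 bp within 1 kb, 1518 against 1014 bp at 1 to 10 kb, 1133 against 912 bp at 10 to 50 kb, and 977 against 839 bp beyond 50 kb. Of the 27 SOX peaks, 22 (81.5%, 63.3 to 91.8%) were wider than the median of their class, which by construction 50.0% of all peaks were. The 5 exceptions were the TSS peaks of Sox4 and Sox7 and 3 of the 7 peaks of Sox11. The intervals cover counting error only and treat peaks of 1 gene as separate, which they are not.

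**Figure D2:**
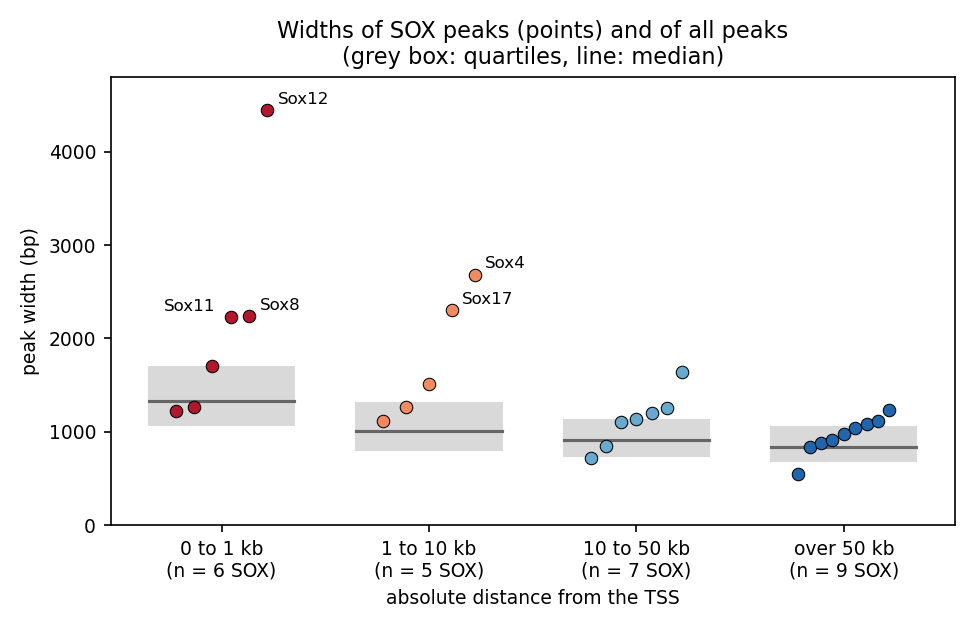
Peak width in bp (vertical axis, from 0) of the 27 SOX peaks (points) in 4 classes of absolute distance from the TSS (horizontal axis), beside all peaks of the class (grey box, quartiles, with a line at the median). 22 of the 27 points lie above the line of their class, and the Sox12 peak of 4440 bp stands far above the other SOX peaks.

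Some SOX peaks more than 1 kb from the TSS, most of them within 10 kb of it, had the CpG content of peaks within 1 kb. CpG dinucleotides are usually depleted in mouse DNA except in CpG islands, which mark many promoters, and the ratio of observed to expected CpG measures this. SOX peaks within 1 kb of the TSS had a median GC content of 63.5% and a median CpG ratio of 0.742, against 58.6% and 0.685 for all peaks of that class. At 1 to 10 kb the SOX median ratio was 0.597 and that of all peaks 0.289, with an upper quartile of 0.485, and the 5 SOX peaks in this class ranged from 0.472 to 0.761. Beyond 10 kb, the SOX medians of 0.201 and 0.183 lay near those of all peaks, at 0.240 and 0.217. Of the 21 SOX peaks more than 1 kb from the TSS, 6 had a ratio over 0.5. These were the Sox4 peak at −5268 bp (0.572), the Sox6 peaks at −3106 bp (0.624), −1598 bp (0.597) and +212346 bp (0.668), and the Sox17 peaks at +4510 bp (0.761) and −74563 bp (0.708). The share of all peaks at that distance with a ratio over 0.5 was not determined, so the 6 of 21 is a description only. All peaks at that distance had a median ratio of 0.242, with an upper quartile of 0.369, and the median of the 21 SOX peaks was 0.299. The lowest ratio was 0.0510 at the Sox11 peak at +21887 bp, and the other 5 distal Sox11 peaks were at or below 0.201.

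**Figure D3:**
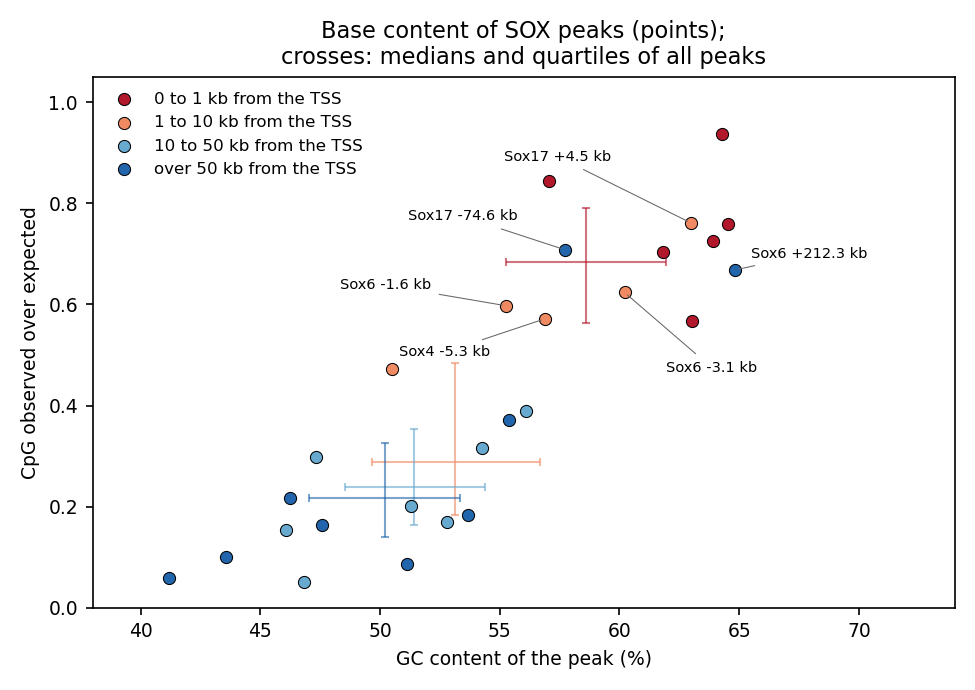
GC content in percent (horizontal axis) and observed over expected CpG (vertical axis) of the 27 SOX peaks, coloured by distance from the TSS, with crosses at the medians and quartiles of all peaks of each distance class. The labelled points are the 6 peaks of Sox4, Sox6 and Sox17 more than 1 kb from the TSS with a ratio over 0.5, which lie among the peaks near a TSS.

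Promoter composition did not fully follow the presence of a TSS peak. Over 500 bp on either side of the outermost coding TSS, the CpG ratio was 0.97 at Sox11, 0.99 at Sox12, 0.80 at Sox4, 0.80 at Sox9, 0.77 at Sox7 and 0.69 at Sox8, all of which had a peak there. It was 0.34 at Sox5, 0.41 at Sox17 and 0.52 at Sox6, which had none, and the median over protein coding genes was 0.555. Sox18, with a ratio of 0.77 and no peak over its TSS, was the exception.

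The SOX genes sat in surroundings of very different size. The distance between the TSS of the coding neighbours on either side was 1909 kb at Sox5, 1713 kb at Sox4, 1387 kb at Sox11 and 1188 kb at Sox9, but 425 kb at Sox17, 127 kb at Sox7, 81.9 kb at Sox8, 81.1 kb at Sox18, 52.6 kb at Sox6 and 38.4 kb at Sox12. The value for Sox6 is smaller than the gene itself, which is 567401 bp long. Its downstream neighbour 1110006G14Rik has its TSS inside Sox6, 6.765 kb past the outermost Sox6 TSS. The neighbours were Bcat1 and Etnk1 for Sox5, Cdkal1 and Prl5a1 for Sox4, Dcdc2c and Gm9866 for Sox11, and Gm11678 and Sstr2 for Sox9, of which Gm9866 is coding in GENCODE and noncoding in RefSeq. Within 100 kb of the TSS and whatever the symbol, Sox11 had 4 peaks, all of them its own, and Sox4 had 4, of which 3 were its own. Sox12 and Sox8 had 7 each, of which 2 were their own, and Sox18 had 6, of which 1 was its own. The median over the 10 genes was 3.5 peaks within 100 kb, against 4 with quartiles of 2 and 7 over protein coding genes, so by this count the SOX genes did not stand above other genes. Around Sox12, Sox8, Sox18, Sox6 and Sox7 most peaks within 300 kb carried symbols of other coding genes, and around Sox4, Sox11, Sox5 and Sox9 they carried the symbol of the SOX gene or of a noncoding gene.

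**Figure D4:**
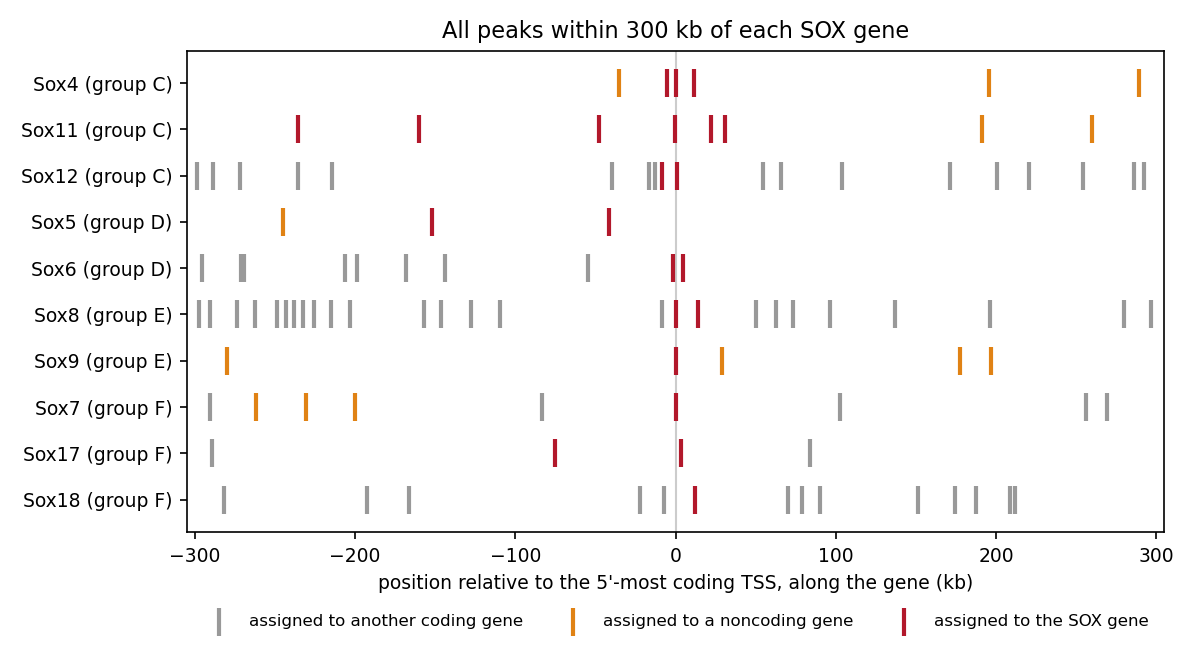
Every peak within 300 kb of the outermost coding TSS of each SOX gene, drawn as a tick at its position along the gene (horizontal axis, in kb, negative upstream) and coloured by the gene it was assigned to (the SOX gene, another coding gene or a noncoding gene). All peaks shown around Sox11 upstream of its TSS belong to Sox11, those around Sox12, Sox8, Sox18, Sox6 and Sox7 mostly belong to other coding genes, and the remaining peaks around Sox4, Sox5 and Sox9 belong to noncoding genes.

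The counts of several SOX genes depended on how peaks were assigned. When each peak was given to the nearest protein coding TSS in place of its deposited symbol, Sox9 went from 1 to 5 peaks, Sox4 from 3 to 7 and Sox5 from 2 to 4, Sox6 went from 6 to 5, and the other 6 genes kept their counts. The 10 peaks gained had all been assigned to noncoding genes. At Sox9 these were Gm11681, with a peak 26.6 kb past the nearest Sox9 TSS (chr11:112671965-112673319, 1355 bp), 1700012H19Rik with 2 peaks and 2610035D17Rik with 1, the last 381 kb past that TSS. At Sox4 they were Mir6368 with 3 peaks and A330102I10Rik with 1, and at Sox5 they were 2 peaks of Sox5os3, named as a transcript of the opposite strand of Sox5. The Sox6 peak lost was that at −3106 bp, whose nearest coding TSS was that of 1110006G14Rik. With the nearest TSS of any annotated gene, noncoding genes included, Sox11 went to 4 peaks and Sox18 to 0.

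**Figure D5:**
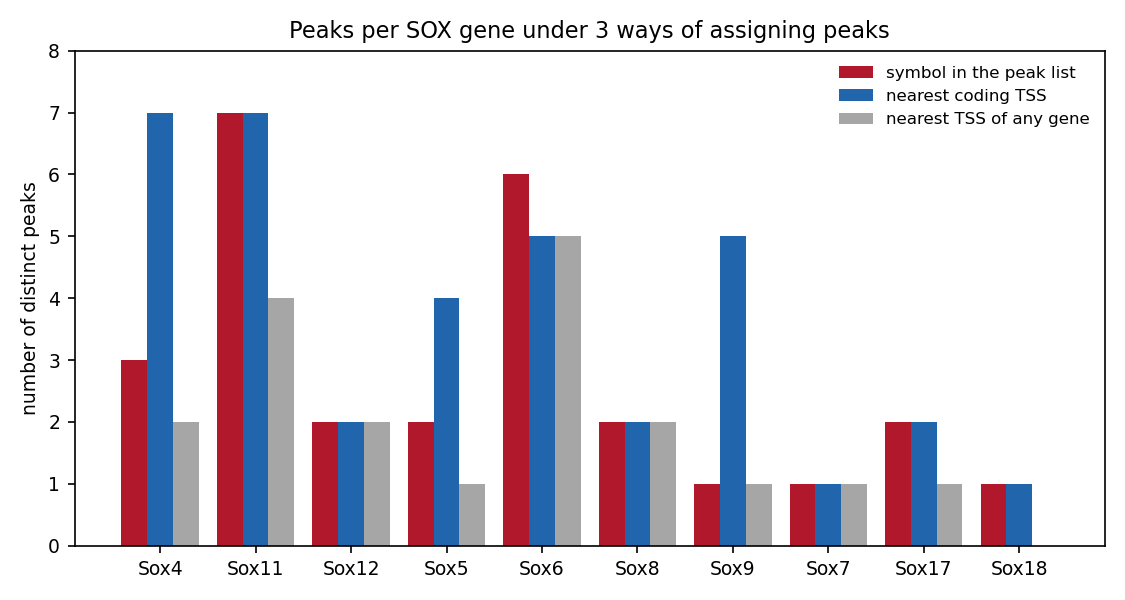
Number of distinct peaks (vertical axis, from 0) for each SOX gene (horizontal axis), with bars by the deposited symbol, by the nearest protein coding TSS and by the nearest TSS of any gene. Sox9 moves from 1 to 5 and Sox4 from 3 to 7 with the coding TSS, while Sox12, Sox8 and Sox7 have the same count in all 3.

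SOX factors bind short A and T rich sites, and the letters AACAAT and ACAAAG were searched for on both strands of the SOX peaks. In the central 300 bp, where peaks of all widths can be compared, 7 of 27 SOX peaks (25.9%, 13.2 to 44.7%) held either hexamer, against 20.6% of all peaks, and among peaks more than 1 kb from the TSS 6 of 21 (28.6%, 13.8 to 50.0%) did, against 27.3%. Over the whole width, AACAAT stood in 12 of 27 SOX peaks (44.4%, 27.6 to 62.7%), against 27.9% of all peaks, and in 10 of 21 (47.6%) of those more than 1 kb away, against 28.7%. Per length, the distal SOX peaks held 0.551 matches of AACAAT per kb against 0.353 in all distal peaks, while for ACAAAG the values were 0.865 and 0.824. The central 300 bp did not show this difference, since 2 of the 21 distal SOX peaks (9.52%) held AACAAT there, against 8.44% of all distal peaks. For either hexamer in the central window, the intervals of both SOX shares included the shares of all peaks. For other factors, the central 300 bp held the letters AGATAA of GATA factor sites in 4 of 27 SOX peaks (14.8%) against 9.50% of all peaks. They held the TEAD letters GGAATG in 6 (22.2%) against 16.5%, the T-box letters AGGTGT in 4 (14.8%) against 12.4%, and the homeodomain letters TAATTA in 1 (3.70%) against 3.00%.

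Matches lay close together in some of the distal peaks, of which 3 stretches are shown because each holds 2 or 3 matches in under 100 bp. How many of all distal peaks hold matches this close was not determined, so this is not a trait of SOX peaks. The stretches are read along the gene, which is on the minus strand in each case, on mm9, with the hexamer in either orientation in capitals. The first is from the Sox17 peak at −74563 bp (chr1:4562343-4562405) and holds all 3 matches of that peak. The second is from the Sox5 peak at −41522 bp (chr6:144199780-144199861) and holds 2 of 5, and the third is from the Sox11 peak at +21887 bp (chr12:28005384-28005442) and holds 2 of 3.
Sox17: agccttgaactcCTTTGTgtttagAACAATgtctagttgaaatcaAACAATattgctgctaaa
Sox5: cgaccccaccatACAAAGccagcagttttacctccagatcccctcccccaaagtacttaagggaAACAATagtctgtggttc
Sox11: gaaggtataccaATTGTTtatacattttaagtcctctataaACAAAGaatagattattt

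The Sox17 stretch was the densest, with 1 match of ACAAAG and 2 of AACAAT in 63 bp. In none of these 3 peaks does a match of letters show that a SOX factor was bound.

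Genes known to act with or downstream of SOX factors were looked up in the same list, and 15 of 21 had a peak, 14 of them within 1 kb of the TSS, beside 62.5% and 50.0% of protein coding genes, so these counts do not set the genes apart. The cartilage genes controlled by Sox9, Sox5 and Sox6 were mostly without one, since of 5 only Col2a1, which encodes type II collagen, had peaks (2), and Acan, Col11a2, Col9a1 and Matn1 had none. Of 6 endothelial genes bound by group F factors 5 had peaks, led by Efnb2 with 8, Flt1 with 7 and Kdr with 4, and Tek had none. All 3 endoderm genes of Sox17 looked up had peaks, with 7 at Foxa2, 5 at Cxcr4 and 3 at Gata6. Of 3 targets of Sox4 and Sox11, Tubb3 had 2 and Tead2 had 1, and Dcx had none. The 4 Wnt pathway partners all had a peak within 1 kb of the TSS, with 7 at Tcf7l2, 4 each at Lef1 and Tcf7l1 and 1 at Ctnnb1.

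Of the other 10 SOX genes looked up, which include those of pluripotency and neural fate, 7 had peaks, beside 62.5% of protein coding genes. Their peaks numbered 18 in all, with a median of 1 per gene. Sox13, the remaining group D gene, had 6, Sox1 had 5, Sox2 and Sox30 had 2, and Sox3, Sox14 and Sox15 had 1, while none carried the symbol of Sry, Sox10 or Sox21. The nearest peak to Sox21 was centred 1049 bp past its TSS and assigned to LOC105245869, and 2 peaks went to Sox21 by the nearest protein coding TSS. A peak within 1 kb of the TSS was found at 7 of these 10 genes and at 6 of the 10 SOX genes described here, beside 50.0% of protein coding genes. Sox13 was among the 7, and Sox5 and Sox6 of its own group had peaks only beyond 1 kb.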

How the data were processed

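ATAC-Seq was performed by the authors on 2 replicates of day 5 CPCs. Following the published methods, the authors aligned reads to mm9 by Bowtie2, filtered them with SAMtools and Picard 1.136 and called peaks with MACS14. They removed blacklisted regions and used bedtools 2.15 to retain the peaks shared by both replicates (overlap of 1 bp or more). The deposited values (other: start, end, signed distance to a TSS and a gene symbol) carry no score and no column per sample. The assignment to the nearest TSS is described for the ChIP-Seq peaks and was taken to hold here.

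The 26429 lines gave 26232 distinct peaks, each counted once. NCBIM37 (the same assembly as mm9) supplied sequence, and GENCODE vM1 the annotated genes. Gene names came from RefSeq (GRCm38.p6, names only), to which 99.8% of peaks matched. Midpoints were compared with annotated TSS, and hexamers were counted on both strands with Python 3.11.15, pandas 2.3.3 and pysam 0.24.0, after a test of the motif search on simulated sequence. Shares have 95% Wilson intervals for counting error. Named genes were all 10 SOX genes, with every peak up to 5 and otherwise the nearest, farthest, widest and narrowest, and the lists of other SOX genes, partners, targets and markers. Of the genes on these lists, 1 is not reported here and is in no count. The members and lists were chosen with earlier results of these data known. No test was run, since there was 1 group and 1 shared list.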

Additional observations from a re-analysis of the deposited data

How the results depend on the processing

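Of 88 combinations of a result and an alternative setting, 76 stayed within the limits set for a change and 12 moved, 10 of the latter being peak counts of single genes. The limits were wide, a factor of 1.5 for counts and, for medians and shares, the 95% interval of the value as reported, so that a median distance of 5268 bp with peaks wider than the median of the list, in place of 14156 bp, was within them. The share of SOX peaks with AACAAT, 44.4% over whole peaks, was 7.41% in the central 300 bp, where fewer letters are searched, against 5.99% of all peaks, and with ACAAAG in its place it was 63.0% against 53.0%. The count of 27 SOX peaks ranged from 19 to 36 over the alternatives, lowest with the nearest TSS of any gene or with peaks wider than the median of the list, and highest with the nearest protein coding TSS. Under those settings 9 or 10 of the SOX genes had a peak. With peaks wider than the median of the list, Sox11 and Sox6 had 3 each and Sox17 had 1. With the nearest TSS of any gene, Sox5 and Sox17 had 1 each. The share of SOX peaks wider than their class median was 77.8% with classes and symbols from the nearest coding TSS and 77.8% with peaks of at least 500 bp. It was 90.0% without Sox11, which had to rise because Sox11 held 3 of the 5 exceptions. All 3 settings were chosen after seeing the data. With a limit of 0.5 kb in place of 1 kb 5 SOX genes had a TSS peak, and with 2 kb 7 did. No paired analysis was possible because values of the separate replicates are not part of the shared list, and for the same reason neither replicate could be left out. Depth was unknown, so the lack of a peak at a SOX gene sets no upper bound on its accessibility.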
